A study of Mus musculus with 14 samples.

Results

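Expression of the genes for the mitochondrial respiratory chain and the ATP synthase was examined in tumour macrophages, with the genes split by the genome that holds them. Members were the protein-coding mouse genes whose symbols begin with mt-Nd, mt-Co, mt-Cytb, mt-Atp, Nduf, Uqcr, Cox4 to Cox8 or Atp5, together with the succinate dehydrogenase genes Sdha, Sdhb, Sdhc and Sdhd and Cyc1 and Cycs, for cytochromes c1 and c. The deposited table of 24556 genes held 106 of them. A member was analysed when its value reached log2(10) or more in 3 or more libraries, which 99 of the 106 members and 11886 genes in all passed. All 13 mitochondrially encoded members passed, mt-Nd4l through 3 GSK day 14 libraries alone, and 86 of 93 nuclear encoded members did. Atp5s, Cox4i2, Cox6b2, Cox8b, Ndufa12, Ndufa4l2 and Sdhd did not pass, and Cox7b2, Cox8c and another gene model named Atp5o were not analysed here.

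Tumours were grown in the fat pads of Balb/c mice from the mouse mammary carcinoma line 4T1. The line itself, and not the animals, had first been kept for 5 days in 5 µM GSK269962A, a kinase inhibitor that acts on ROCK, or in the vehicle DMSO. F4/80+ cells were taken from the tumours with magnetic beads in 2 rounds of separation, and their total RNA was sequenced. The groups were GSK day 14 (4 libraries), DMSO day 14 (4 libraries), GSK day 8 (3 libraries) and DMSO day 8 (3 libraries), with the day counted from injection. The labels do not say that each library came from a separate mouse, so p-values measure the spread between libraries, which may be technical. In such bulk samples fewer cells of a type and less RNA per cell cannot be told apart.

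The respiratory chain passes electrons from NADH and succinate to oxygen through complexes I to IV and pumps protons across the inner mitochondrial membrane, and complex V, the ATP synthase, uses the proton gradient to make ATP. Most subunits are encoded in the nucleus and imported, while a small set of core membrane subunits of complexes I, III, IV and V is encoded in mitochondrial DNA and transcribed there as long polycistronic RNAs that are then processed into single messengers. Assembled complexes therefore need the products of both genomes. Macrophages are known to shift between oxidative phosphorylation and glycolysis with their state of activation.

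Mitochondrial genes share sequence with copies of mitochondrial DNA that lie in nuclear chromosomes. One stretch on mouse chromosome 1 (GRCm38/mm10, chr1:24611535-24616197) holds 7 annotated pseudogenes with copies of mt-Nd4, mt-Nd4l, mt-Nd3, mt-Co3, mt-Atp6, mt-Co2 and the end of mt-Co1. The copies of mt-Nd4, mt-Nd4l, mt-Co3, mt-Atp6 and mt-Co2 had 0 differences from the member over their aligned length. The first 90 bases of mt-Co2 and of its copy Gm28661 are shown because a short read from either is identical.
mt-Co2: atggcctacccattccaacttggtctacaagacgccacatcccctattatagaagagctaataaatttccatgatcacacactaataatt
Gm28661: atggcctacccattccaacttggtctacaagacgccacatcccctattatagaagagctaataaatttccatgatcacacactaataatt
The copy of mt-Nd3, Gm28438, differed from it at 1 of 345 aligned bases (T3C, with positions counted from 1 at the first base of the gene), shown in capitals.
mt-Nd3: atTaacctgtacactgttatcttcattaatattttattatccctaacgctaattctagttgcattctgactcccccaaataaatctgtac
Gm28438: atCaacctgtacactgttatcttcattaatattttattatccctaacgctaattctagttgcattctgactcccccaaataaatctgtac
The copy of mt-Co1, Gm29216, covers bases 1054 to 1545 of the gene and carried 6 differences in 492 bases, all of them among the first 60 bases and in capitals here.
mt-Co1: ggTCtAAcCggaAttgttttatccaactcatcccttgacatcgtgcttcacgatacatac
Gm29216: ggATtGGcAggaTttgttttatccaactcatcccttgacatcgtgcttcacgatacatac
How the counting step divided reads between a gene and such a copy is not given in the sources used here. By the share of 31-base words also found in another annotated gene, mt-Nd1 was the cleanest member (0%), followed by mt-Cytb (6.6%), mt-Nd6 (7.4%), mt-Atp8 (7.5%), mt-Nd2 (13.5%) and mt-Nd5 (16.8%). For the other 7 members the share lay between 62.8% and 100%.

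The deposited values are on a log2 scale, with the transformation not given in the sources used here and no read counts, so the depth behind each value is unknown. Values ran between -2.07 and 20.16 over the whole table. The libraries also differed in which of a pair of loci that overlap the ribosomal RNA repeat was high. AY036118 was the higher of the pair in 9 libraries and Gm42418 in the other 5. The 9 were 4 of 4 GSK day 14, 2 of 4 DMSO day 14, 2 of 3 GSK day 8 and 1 of 3 DMSO day 8 libraries, so values within the 9 are given beside the results below. All 16 macrophage markers passed the filter on low values, among them Adgre1, the gene for F4/80, at 10.16, 10.06, 10.23 and 10.31 in GSK day 14 libraries, against 9.73, 9.01, 9.89 and 9.34 in DMSO day 14 libraries.

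Per kilobase of the principal transcript, unlogged values placed mt-Co3 first of the 99 members (median of 14 libraries 31160) and mt-Co2 next (14470), followed by the nuclear ATP synthase genes Atp5e (12970) and Atp5l (12930). mt-Nd4 was rank 8, and mt-Nd1, mt-Co1, mt-Cytb, mt-Atp6 and mt-Nd2 lay between ranks 16 and 29. mt-Nd3 (69.2) and mt-Nd4l (17.3) were near the bottom, at ranks 86 and 96, and are the members whose nuclear copies Gm28438 and Gm10222 took far higher values (below). Ndufaf6, an assembly factor of complex I, was last (8.79). Whether the deposited values already allow for transcript length is not given in the sources used here, so these ranks are a description.

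Mitochondrially encoded transcripts stood higher in macrophages of day 14 tumours from GSK pre-treated cells, while the median of the nuclear encoded genes differed by less than the spread between libraries. The median of the 13 mitochondrial members was 11.58, 11.61, 12.17 and 12.70 in GSK day 14 libraries, against 11.21, 10.77, 11.56 and 11.24 in DMSO day 14 libraries. In this median all 4 GSK day 14 libraries lay above all 10 others, the closest being DMSO day 14 replicate 3. In all 4 GSK day 14 libraries this median was the value of mt-Nd2, and in DMSO day 14 replicate 3 that of mt-Cytb. In that DMSO library mt-Nd2 was 11.61, so mt-Nd2 itself overlapped between the groups. The median of the 86 nuclear members was 9.62, 9.55, 9.62 and 9.46 in GSK day 14 libraries, against 9.67, 9.51, 9.62 and 9.42 in DMSO day 14 libraries, and these overlapped. The share of the summed unlogged values taken by the ribosomal loci was 4.51%, 3.98%, 4.62% and 2.62% in GSK day 14 libraries, against 3.61%, 12.8%, 6.49% and 8.26% in DMSO day 14 libraries. These shares overlapped, with 3 of 4 DMSO libraries above all GSK libraries. Without these loci, the 13 mitochondrial members took 1.194%, 0.98%, 1.335% and 1.646% of the sum in GSK day 14 libraries. In DMSO day 14 libraries they took 0.891%, 0.852%, 1.014% and 0.779%. These groups overlapped, and GSK day 14 replicate 2 also lay below GSK day 8 replicate 1 (1.198%) and DMSO day 8 replicate 2 (1.08%). The mitochondrial minus nuclear difference was 2.45 ± 0.59 (SD, n = 4) in GSK day 14 libraries and 1.64 ± 0.30 (SD, n = 4) in DMSO day 14 libraries, a gap of 0.81. The 13 members behind this score include mt-Nd4l, which had the lowest value of them in every library. On day 8 the same difference was 1.44 ± 0.28 (SD, n = 3) in GSK and 1.63 ± 0.32 (SD, n = 3) in DMSO libraries, a gap of -0.19. DMSO day 8 replicate 1 (1.99) lay above GSK day 14 replicate 1 (1.96) in this difference. These scores were given no test, because the members were chosen with earlier results of the data known. Over the 6 members with under 20% of shared words the difference was 1.31 ± 0.44 in GSK day 14 libraries and 0.70 ± 0.27 in DMSO day 14 libraries (SD, n = 4 each), with the lowest GSK value, 0.995, at the level of the highest DMSO value, 0.996. GSK day 14 replicate 4 was the highest of its group in 11 of the 13 mitochondrial genes. Without it the day 14 gap was 0.55, the lowest over all libraries left out. Within the 9 libraries with AY036118 higher, both DMSO day 14 libraries (1.54 and 1.94) were below the lowest GSK day 14 library (1.96).

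**Figure D1:**
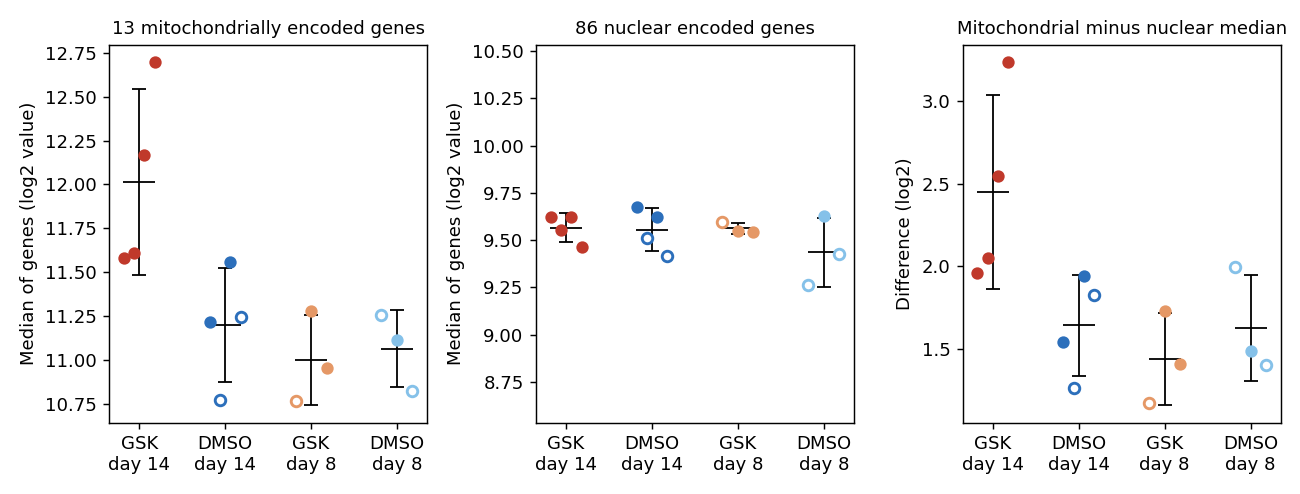
Median log2 value per library of the 13 mitochondrially encoded and the 86 nuclear encoded genes, and their difference, in the 4 groups. Points are libraries (filled, AY036118 above Gm42418; open, the reverse), and bars give mean ± SD. GSK day 14 libraries lie between 11.58 and 12.70 in the mitochondrial panel, above all others, while the nuclear medians stay between 9.26 and 9.67. In the difference panel DMSO day 8 replicate 1 (1.99) lies above GSK day 14 replicate 1 (1.96).

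The comparison of GSK with DMSO on day 14 asks whether the drug given to the tumour cells left a mark on macrophages of the established tumour. Over all genes, 10.8% passed an adjusted p of 0.05 by limma, with 5.1% higher and 5.73% lower in the GSK group. Of the mitochondrial members 5 of 13 rose and 0 fell, with a median difference of 0.88 against 0.02 over all genes tested, and 12 of 13 differences were positive. One of the 5 was mt-Nd4l, which passed the filter on low values through the group in which it was high and so had to differ. Without it 4 of 12 rose, with a median difference of 0.84. Of the nuclear members 7 of 86 rose and 8 fell, with a median difference of 0.07. An unadjusted p under 0.05 was reached by 10 of 13 mitochondrial (9 of 12 without mt-Nd4l) and 33 of 86 nuclear members, against 27.3% of all genes. Groups did not overlap, with GSK higher, in 5 of 13 mitochondrial and 16 of 86 nuclear members, where 11.2% of all genes did so. In the other direction 0 mitochondrial and 9 nuclear members did not overlap, against 10.7% of all genes (22% in either direction). Without GSK day 14 replicate 4, mt-Co1, mt-Cytb, mt-Nd6 and Cox7b were the members left past the threshold, so 3 mitochondrial and 1 nuclear. Without DMSO day 14 replicate 2 there were 3 mitochondrial and 3 nuclear members. Within the 9 libraries with AY036118 higher, 3 mitochondrial and 11 nuclear members passed, and with this split as a term in the fit 3 and 3. The share of all genes that passed is not given for these refits or those below, so lost calls cannot be set against all genes.

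Complex I takes electrons from NADH, and its 7 mitochondrial ND subunits form the core of the proton-pumping membrane arm. mt-Nd1 was 12.62, 12.14, 12.74 and 13.24 in GSK day 14 libraries, against 12.05, 10.91, 11.94 and 11.60 in DMSO day 14 libraries, and the groups did not overlap. mt-Nd1 rose by 1.06 ± 0.24 (SE; adjusted p = 0.0159). mt-Nd6 is the sole protein gene on the light strand of mitochondrial DNA, at chrM:13552-14070, where its end overlaps mt-Nd5 on the other strand (chrM:11742-13565). It was 9.65, 9.30, 9.18 and 9.78 in GSK day 14 libraries, against 8.18, 8.39, 8.94 and 8.11 in DMSO day 14 libraries. All 4 GSK values were above all 4 DMSO values, and mt-Nd6 rose by 1.07 ± 0.18 (SE; adjusted p = 0.00513), which is 2.11-fold. Whether reads were counted by strand is not given in the sources used here, so reads from the opposite strand of mt-Nd6 cannot be told apart.

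The other ND genes were less uniform. mt-Nd4 was 14.16, 13.81, 14.15 and 14.64 in GSK day 14 libraries, against 13.77, 12.56, 13.55 and 13.38 in DMSO day 14 libraries. Those groups did not overlap, yet the difference of 0.88 ± 0.28 (SE) missed the threshold (adjusted p = 0.0552). mt-Nd2 was 11.58, 11.61, 12.17 and 12.70 in GSK day 14 libraries, against 11.21, 10.77, 11.61 and 11.25 in DMSO day 14 libraries, a difference of 0.80 ± 0.27 (SE; adjusted p = 0.0677). mt-Nd5 was 9.63, 9.50, 9.70 and 10.11 in GSK day 14 libraries, against 9.07, 9.21, 9.41 and 9.58 in DMSO day 14 libraries. Its groups overlapped, and the difference was 0.41 ± 0.18 (SE; adjusted p = 0.157). mt-Nd4l was 2.31, 3.90, 3.38 and 4.27 in GSK day 14 libraries, against 2.34, 2.37, 2.32 and 2.35 in DMSO day 14 libraries. The other 3 GSK day 14 values are those that let mt-Nd4l pass the filter on low values, so its difference of 1.12 ± 0.27 (SE) is a description and its count among the genes that rose is no support. GSK day 14 replicate 1 stayed at the level of all 10 libraries outside its group, which spanned 2.30 to 2.42. mt-Nd3 was 4.97, 4.68, 4.17 and 5.41 in GSK day 14 libraries, against 5.01, 4.22, 4.91 and 4.19 in DMSO day 14 libraries, with overlap and a difference of 0.22 ± 0.24 (SE; adjusted p = 0.594).

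mt-Cytb encodes cytochrome b, the heme protein at the centre of complex III and the sole mitochondrial gene of that complex. It was 12.35, 11.83, 12.31 and 12.80 in GSK day 14 libraries, against 11.44, 10.85, 11.56 and 11.44 in DMSO day 14 libraries. The groups did not overlap, and mt-Cytb rose by 1.00 ± 0.20 (SE; adjusted p = 0.00835).

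The catalytic core of cytochrome c oxidase, complex IV, is made of the products of mt-Co1, mt-Co2 and mt-Co3, and these differed in direction as deposited. mt-Co1 was 12.88, 12.65, 12.98 and 13.39 in GSK day 14 libraries, against 12.29, 11.37, 12.14 and 12.15 in DMSO day 14 libraries. It rose by 0.99 ± 0.19 (SE; adjusted p = 0.00741), with no overlap. mt-Co2 was 12.96, 13.04, 13.30 and 12.82 in GSK day 14 libraries, against 13.19, 14.36, 13.92 and 12.94 in DMSO day 14 libraries. Its difference was -0.57 ± 0.30 (SE; adjusted p = 0.233), the one negative value among the 13. mt-Co3 was 14.72, 14.39, 14.96 and 14.99 in GSK day 14 libraries, against 14.71, 14.54, 14.61 and 14.38 in DMSO day 14 libraries, a difference of 0.20 ± 0.20 (SE; adjusted p = 0.55) with overlap.

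Of the ATP synthase, mitochondrial DNA encodes subunit a (mt-Atp6), part of the proton channel, and the small membrane subunit mt-Atp8. mt-Atp6 was 11.36, 10.22, 11.86 and 11.68 in GSK day 14 libraries, against 10.79, 9.12, 10.66 and 10.80 in DMSO day 14 libraries. The difference of 0.94 ± 0.40 (SE) did not pass (adjusted p = 0.139). mt-Atp8 was 5.99, 5.92, 6.13 and 6.73 in GSK day 14 libraries, against 5.66, 5.06, 6.03 and 5.83 in DMSO day 14 libraries, and its difference of 0.54 ± 0.24 (SE) did not pass either (adjusted p = 0.155). Both genes overlapped between the groups.

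**Figure D2:**
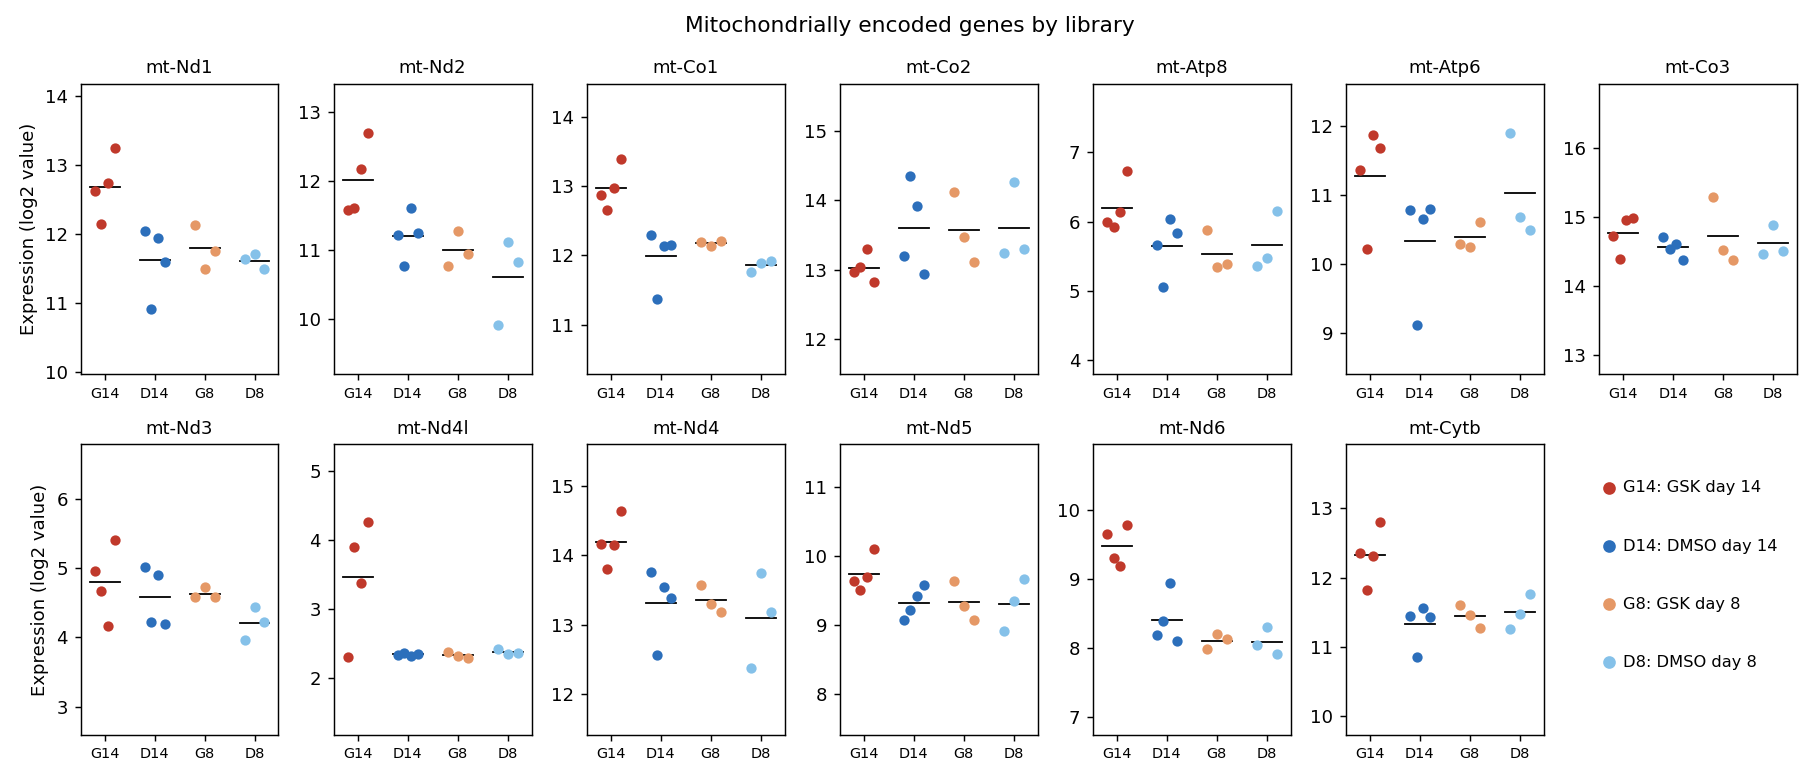
Log2 value of each mitochondrially encoded gene in every library, in map order, with bars at the group means; the vertical axes span at least 4.2 log2 units but start at different levels. GSK day 14 points lie above all DMSO day 14 points for mt-Nd1, mt-Co1, mt-Nd4, mt-Nd6 and mt-Cytb, and mt-Nd4l leaves a narrow band near 2.3 in 3 of 4 GSK day 14 libraries.

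Adding the unlogged value of each nuclear copy back to its gene changed the picture for the genes with near-identical copies. As deposited, Gm28661 was 15.25, 15.03, 15.05 and 15.30 in GSK day 14 libraries, against 13.97, 11.41, 14.20 and 14.40 in DMSO day 14 libraries, so it exceeded mt-Co2 itself in all 4 GSK and in 3 of 4 DMSO libraries. In DMSO day 14 replicate 2, where Gm28661 was lowest, mt-Co2 was highest of its group. The sum of mt-Co2 and Gm28661 rose by 0.69 ± 0.16 (SE; adjusted p = 0.0143), the opposite direction to mt-Co2 alone. For mt-Nd3, whose copy Gm28438 was 10.87, 10.64, 10.87 and 11.24 in GSK day 14 libraries, against 9.93, 9.53, 10.38 and 9.93 in DMSO day 14 libraries, the sum rose by 0.95 ± 0.17 (SE; adjusted p = 0.00579).

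Gm29216, the copy of the end of mt-Co1, was 10.46, 7.88, 10.72 and 10.53 in GSK day 14 libraries, against 7.22, 3.89, 3.53 and 3.75 in DMSO day 14 libraries. Its difference of 5.30 ± 0.79 (SE; adjusted p = 0.00254) was far larger than that of any member, and the sum with mt-Co1 rose by 1.16 ± 0.20 (SE; adjusted p = 0.00508). The sum of mt-Atp6 and Gm10925 rose by 1.44 ± 0.33 (SE; adjusted p = 0.0150). For mt-Nd4l the copy was at a far higher level than the gene. Gm10222 was 8.33, 8.35, 8.43 and 8.43 in GSK day 14 libraries, against 8.10, 8.00, 8.45 and 8.16 in DMSO day 14 libraries, and the sum differed by 0.23 ± 0.15 (SE; adjusted p = 0.329). With the copies added, 7 of 13 members rose on day 14 and all 13 differences were positive. This sum was an added alternative, chosen after values had been seen, and the copies of mt-Nd4 and mt-Co3 were not analysed here.

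**Figure D3:**
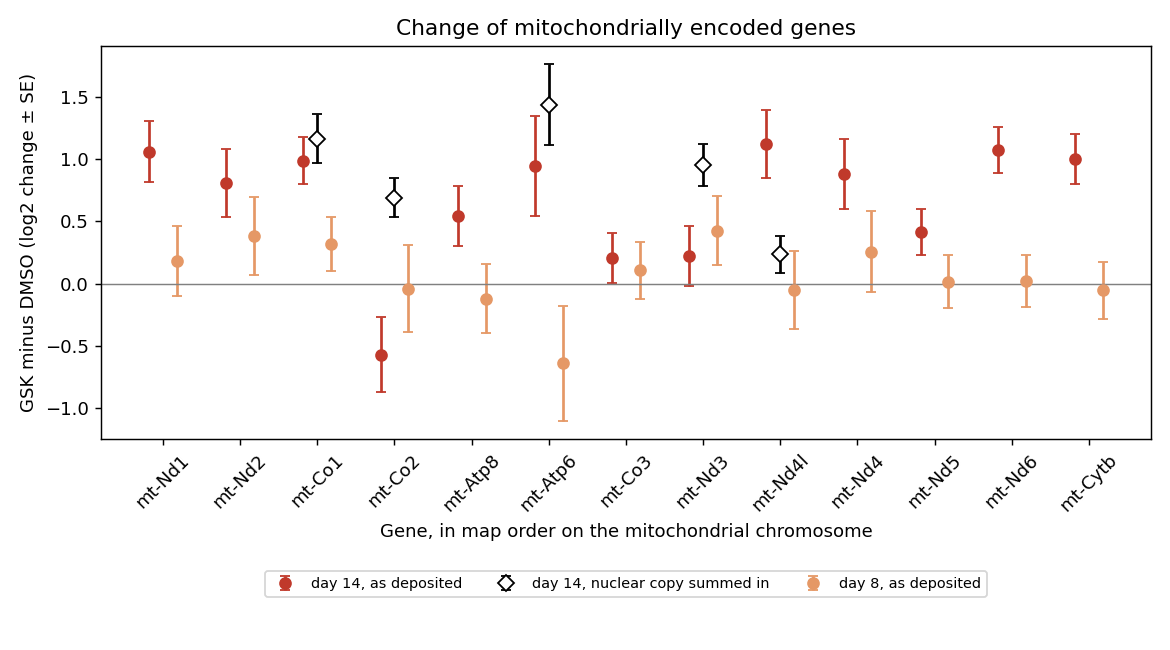
Difference between GSK and DMSO (log2 ± SE) of the mitochondrially encoded genes in map order, on day 14 as deposited, on day 14 with the nuclear copy summed in (5 genes), and on day 8 as deposited. With copies summed in, mt-Co2 stands at 0.69 instead of -0.57 and mt-Nd4l at 0.23 instead of 1.12, and the day 8 values scatter on both sides of 0.

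The 2 mitochondrial ribosomal RNAs, encoded ahead of the messengers on the heavy strand, moved the same way on day 14. mt-Rnr2 was 13.85, 14.08, 14.31 and 14.83 in GSK day 14 libraries, against 12.21, 13.18, 13.47 and 13.13 in DMSO day 14 libraries, and rose by 1.27 ± 0.25 (SE; adjusted p = 0.00835). mt-Rnr1 rose by 0.88 ± 0.22 (SE; adjusted p = 0.0226). Of the 3 kept mitochondrial RNAs other than messengers, the remaining one differed by -0.06 on day 14 and by -0.39 on day 8. On day 8 mt-Rnr2 was 13.98, 13.84 and 13.95 in GSK libraries, against 12.53, 12.48 and 13.12 in DMSO libraries, with no overlap and a difference of 1.22 ± 0.29 (SE; adjusted p = 0.0697). mt-Rnr1 did not overlap on day 8 either, at 11.73, 11.18 and 11.38 in GSK libraries, against 10.52, 10.99 and 10.81 in DMSO libraries. Its difference there was 0.65 ± 0.25 (SE; adjusted p = 0.222).

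Nuclear encoded complex I genes that passed on day 14 were all lower in GSK libraries, but most did not pass. Among the 35 kept nuclear core and accessory subunits 0 rose and 6 fell, with a median difference of 0.02, and 18 differences were positive and 17 negative. Over all genes 5.1% were higher and 5.73% lower. Of the 6 mitochondrial subunits other than mt-Nd4l, 2 rose and 0 fell, with a median of 0.84, and the difference between these sets was not tested. Ndufa3, Ndufa2, Ndufa11 and Ndufb7, accessory subunits of the membrane arm or the matrix arm, and Ndufs6, an accessory subunit of the NADH-oxidising module, fell. Ndufa3 was 11.47, 11.41, 11.52 and 11.004 in GSK day 14 libraries, against 12.15, 12.13, 11.69 and 11.98 in DMSO day 14 libraries, and fell by 0.64 ± 0.17 (SE; adjusted p = 0.0288). Ndufa2 was 12.06, 11.997, 12.13 and 11.72 in GSK day 14 libraries, against 12.91, 12.67, 12.29 and 12.51 in DMSO day 14 libraries, and fell by 0.62 (adjusted p = 0.0354). Neither gene overlapped between the groups. Ndufa11 was 10.28, 10.23, 10.32 and 9.97 in GSK day 14 libraries, against 11.13, 10.78, 10.59 and 10.70 in DMSO day 14 libraries, and fell by 0.60 (adjusted p = 0.0293).

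Ndufs7 is the core subunit that holds the last iron-sulfur cluster before ubiquinone. It was 8.96, 9.09, 9.26 and 8.89 in GSK day 14 libraries, against 9.67, 9.50, 9.55 and 9.29 in DMSO day 14 libraries, and fell by 0.45 ± 0.13 (SE; adjusted p = 0.0420). Ndufs6 was 10.96, 10.93, 11.04 and 10.66 in GSK day 14 libraries, against 11.74, 11.62, 11.20 and 11.35 in DMSO day 14 libraries, and fell by 0.58 (adjusted p = 0.0353). Both kept their groups apart. Ndufb7 was 9.75, 9.80, 10.05 and 9.17 in GSK day 14 libraries, against 10.46, 10.52, 9.83 and 10.46 in DMSO day 14 libraries. Its groups overlapped, and the fall of 0.63 passed narrowly (adjusted p = 0.0497). The core subunits Ndufs1 and Ndufv1 of the electron-input module differed by -0.07 ± 0.16 and 0.03 ± 0.22 (SE). None of the 8 complex I assembly factors among the members passed, with differences between -0.35 and 0.19.

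Complex II, succinate dehydrogenase, has no mitochondrially encoded subunit. Its membrane anchor Sdhc was 7.36, 7.21, 7.01 and 7.52 in GSK day 14 libraries, against 6.28, 6.86, 6.79 and 6.61 in DMSO day 14 libraries, and rose by 0.64 ± 0.19 (SE; adjusted p = 0.0433). The catalytic subunits Sdha and Sdhb differed by 0.15 ± 0.13 and 0.24 ± 0.21 (SE), and neither passed.

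Nuclear genes of complex III, which passes electrons from ubiquinol to cytochrome c, moved in both directions, with 2 of 9 higher and 1 lower (5.1% and 5.73% of all genes). Uqcrb, a subunit next to the ubiquinone site, was 7.82, 7.71, 7.78 and 8.22 in GSK day 14 libraries, against 7.09, 6.32, 7.27 and 6.93 in DMSO day 14 libraries, and rose by 0.98 ± 0.21 (SE; adjusted p = 0.0126). Uqcrfs1, the Rieske iron-sulfur protein, was 8.25, 8.03, 8.14 and 8.41 in GSK day 14 libraries, against 7.61, 7.68, 7.68 and 7.76 in DMSO day 14 libraries, and rose by 0.52 ± 0.13 (SE; adjusted p = 0.0203). Uqcrh, the hinge protein beside cytochrome c1, went the other way. It was 11.14, 11.18, 11.25 and 10.87 in GSK day 14 libraries, against 11.93, 11.78, 11.45 and 11.74 in DMSO day 14 libraries, and fell by 0.62 ± 0.16 (SE; adjusted p = 0.0239). None of the 3 overlapped between the groups. Uqcrc1, a core subunit, differed by 0.21 ± 0.20 (SE). Cyc1, cytochrome c1, and Cycs, the soluble electron carrier cytochrome c, differed by -0.10 ± 0.18 and -0.32 ± 0.15 (SE), and none of these passed.

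Complex IV held the largest difference of any member. Cox7b, an accessory subunit, was 9.02, 8.37, 9.04 and 9.47 in GSK day 14 libraries, against 7.46, 6.66, 7.84 and 7.04 in DMSO day 14 libraries, and rose by 1.72 ± 0.28 (SE; adjusted p = 0.00454), which is 3.30-fold. Cox7c, another small accessory subunit, was 10.97, 10.93, 10.63 and 11.16 in GSK day 14 libraries, against 8.91, 9.97, 10.02 and 10.19 in DMSO day 14 libraries, and rose by 1.15 ± 0.30 (SE; adjusted p = 0.0271). Neither overlapped, and these were 2 of 14 nuclear complex IV members, with 0 lower (5.1% and 5.73% of all genes). Cox4i1, the subunit that binds ATP as a regulator, and Cox5a differed by -0.28 ± 0.13 and -0.28 ± 0.14 (SE) and did not pass.

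Of the 16 nuclear ATP synthase genes 2 rose and 1 fell, against 5.1% and 5.73% of all genes, so the share that fell is near that of all genes. Atp5g2, a gene for subunit c of the rotating ring, was 6.21, 6.55, 6.27 and 6.82 in GSK day 14 libraries, against 5.19, 5.45, 5.52 and 5.98 in DMSO day 14 libraries, and rose by 0.93 ± 0.27 (SE; adjusted p = 0.0386). Atp5j, coupling factor 6 of the stalk, was 7.41, 7.14, 7.37 and 7.79 in GSK day 14 libraries, against 6.77, 6.54, 6.89 and 6.19 in DMSO day 14 libraries, and rose by 0.83 ± 0.18 (SE; adjusted p = 0.0132). Atp5l, subunit g of the membrane part, was 12.45, 12.48, 12.39 and 12.12 in GSK day 14 libraries, against 13.18, 12.98, 12.66 and 12.98 in DMSO day 14 libraries, and fell by 0.59 ± 0.15 (SE; adjusted p = 0.0206). The groups stood apart in all 3. The catalytic head subunits Atp5a1 and Atp5b differed by 0.22 ± 0.14 and 0.08 ± 0.15 (SE) and did not pass.

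**Figure D4:**
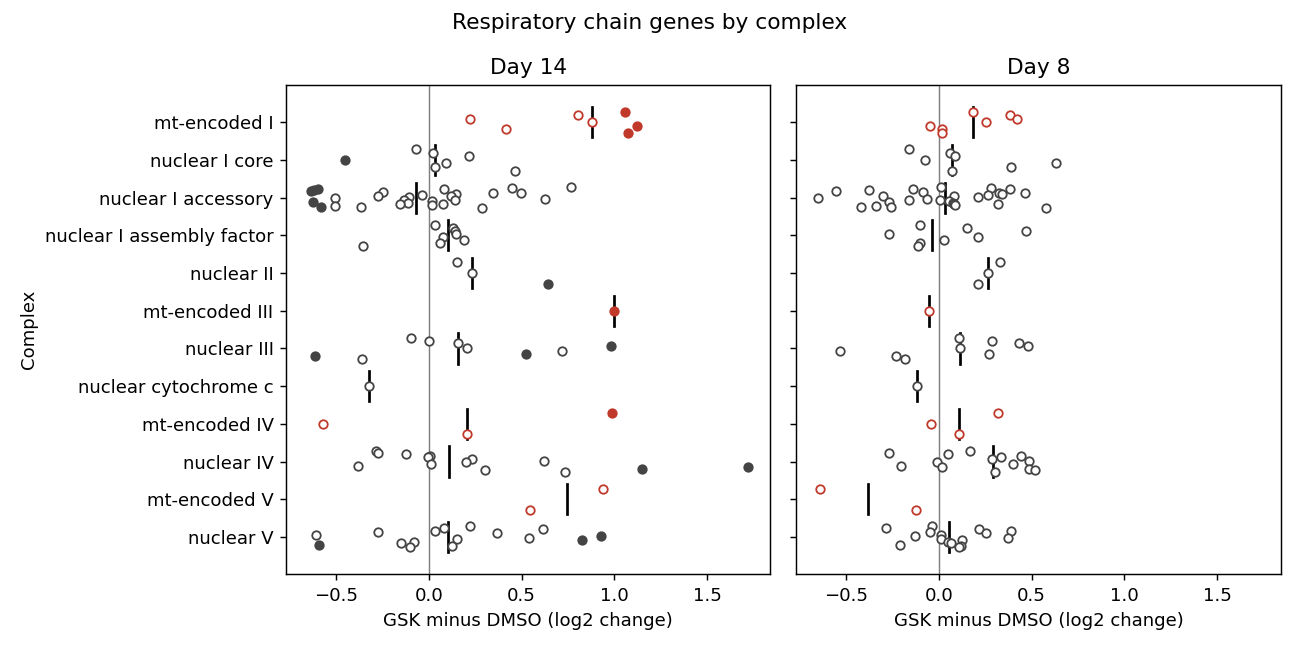
Difference between GSK and DMSO (log2) of every kept member by complex, on day 14 (left) and day 8 (right); red, mitochondrially encoded; grey, nuclear encoded; filled points passed an adjusted p of 0.05, and bars mark medians. On day 14 the mitochondrial members of complex I centre on 0.88 (0.84 without mt-Nd4l) and no nuclear complex I member past the threshold lies above 0, while on day 8 no point is filled.

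GSK day 14 replicate 4 was the extreme library of its group for each nuclear gene that passed, being highest in 7 of 7 that rose and lowest in 8 of 8 that fell. Over all 86 nuclear members it was highest in 18 and lowest in 36. Some of the genes that rose share sequence with processed pseudogenes or other genes. The share of 31-base words was 40.2% for Atp5g2, 34.8% for Uqcrb, 24.5% for Cox7c and 11.4% for Atp5j, so their values are uncertain. Cox7b (6.9%), Sdhc (2.2%) and Uqcrfs1 (0%) shared less. Among the genes that fell the share was 15.1% for Ndufs6, 14.2% for Atp5l and 12.8% for Ndufa11, so these values are uncertain too. Ndufa2 (7.2%), Uqcrh (6.7%), Ndufs7 (2.6%), Ndufb7 (0.3%) and Ndufa3 (0%) shared less. Among the 53 nuclear members under 10%, 3 rose and 5 fell, against 5.1% and 5.73% of all genes, so the share that rose is near that of all genes.

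**Figure D5:**
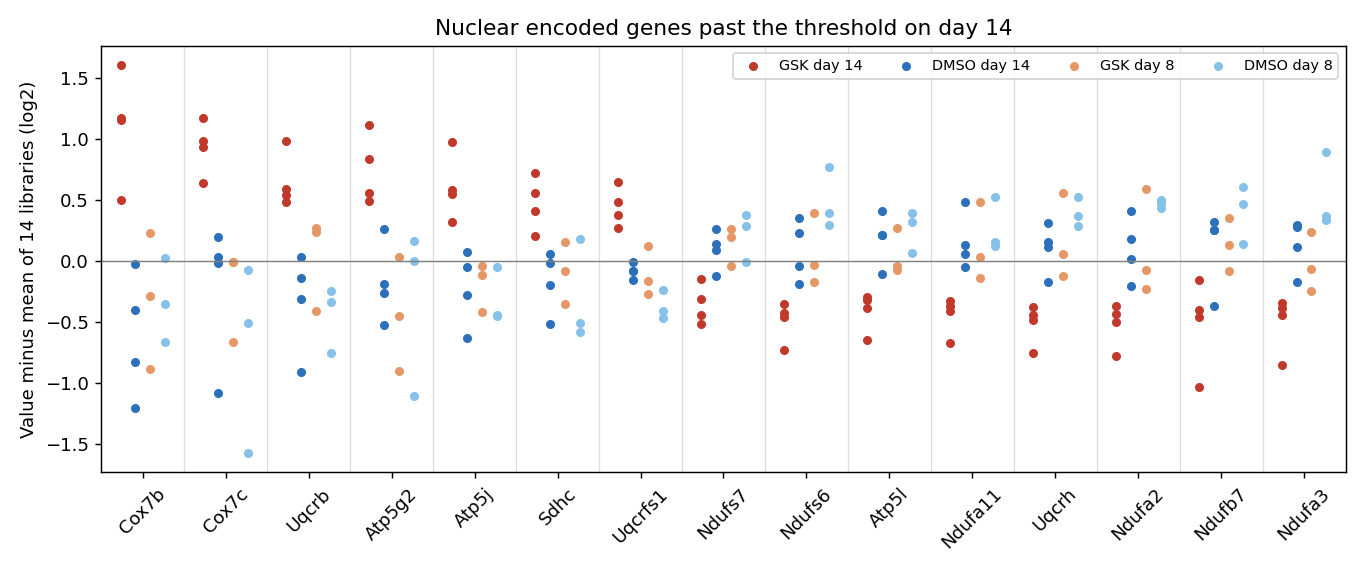
Values of the 15 nuclear encoded genes past the threshold on day 14, as the log2 value minus the gene's mean over 14 libraries, ordered by their difference. Points are libraries. GSK day 14 points lie above all DMSO day 14 points for the 7 genes that rose, from Cox7b to Uqcrfs1, and below them for 7 of 8 that fell, with Ndufb7 overlapping.

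On day 8, 6 days earlier in tumour growth, no member passed in the comparison of GSK with DMSO, where 0.194% of all genes did (0.0589% higher and 0.135% lower). By limma 0 of 13 mitochondrial members reached an unadjusted p under 0.05, against 12 of 86 nuclear members (9 higher and 3 lower) and 16.3% of all genes. The mitochondrial median difference was 0.02 and the nuclear one 0.08. mt-Nd6 was 7.98, 8.21 and 8.12 in GSK day 8 libraries, against 8.04, 8.31 and 7.91 in DMSO day 8 libraries, a difference of 0.02 with a 95% interval between -0.43 and 0.47. mt-Cytb was 11.60, 11.46 and 11.27 in GSK day 8 libraries, against 11.25, 11.47 and 11.77 in DMSO day 8 libraries, a difference of -0.05 with an interval between -0.54 and 0.43. For both genes the groups overlapped. For mt-Co1 (0.32) and mt-Nd1 (0.18) the day 8 intervals reached 0.78, and for mt-Atp6 the difference was -0.64 with an interval between -1.62 and 0.34. Among nuclear members Ndufv3, an accessory subunit of complex I, had the smallest unadjusted p, with a difference of 0.58 ± 0.16 (SE; adjusted p = 0.110). Sdha differed by 0.33 ± 0.15 (SE; adjusted p = 0.281) with no overlap. GSK values lay above all DMSO values in 2 of 13 mitochondrial and 9 of 86 nuclear members, as in 8.01% of all genes, and below them in 0 and 2, as in 8.14% (16.2% in either direction).

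The difference between the day 14 and day 8 effects was tested directly, and no member passed, as 0.00841% of all genes did. At an unadjusted p under 0.05 there were 6 mitochondrial members (5 without mt-Nd4l), all with the larger effect on day 14, and 4 nuclear members, 3 of them in that direction, against 8.3% of all genes. mt-Nd6 and mt-Cytb had differences of effect of 1.06 ± 0.28 and 1.05 ± 0.30 (SE; adjusted p = 0.504 for both). Cox7b had 1.71 ± 0.43 (SE; adjusted p = 0.504), Atp5g2 had 1.05 ± 0.41 and Cox4i1 had -0.45 ± 0.20 (SE). That the effects of day 14 and day 8 differ is therefore not shown after adjustment over all genes.

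Day 14 was also set against day 8 within each pre-treatment, to ask how the members change as the tumour grows. The GSK day 14 libraries serve in this comparison and in the one with DMSO on day 14, so the differences of both are not independent. In the GSK groups 7.01% of all genes passed, 3.05% higher and 3.95% lower on day 14. Of the mitochondrial members 5 of 13 rose and 0 fell (median 0.84), and of the nuclear members 5 of 86 rose and 3 fell (median 0.02, against 0.01 over all genes). mt-Nd6 was 9.65, 9.30, 9.18 and 9.78 in GSK day 14 libraries, against 7.98, 8.21 and 8.12 in GSK day 8 libraries, and rose by 1.38 ± 0.20 (SE; adjusted p = 0.00204). mt-Nd2 rose by 1.02, mt-Cytb by 0.88 and mt-Co1 by 0.80, with mt-Nd4l, which passed the filter through the same GSK day 14 libraries, at 1.13. Without mt-Nd4l 4 of 12 rose, with a median of 0.82. Among nuclear members Cox7b rose by 1.42, Atp5g2 by 1.19, Cox7c by 1.16, Atp5j by 0.80 and Uqcrfs1 by 0.55. Uqcrh fell by 0.68, Cox4i1 by 0.54 and Ndufs7 by 0.50. Cox4i1 was 11.63, 11.73, 11.80 and 11.38 in GSK day 14 libraries, against 12.35, 12.19 and 11.99 in GSK day 8 libraries, with no overlap. In 7 of 13 mitochondrial and 21 of 86 nuclear members all GSK day 14 libraries were above all GSK day 8 libraries, as in 15.1% of all genes, and 0 and 17 members were apart in the other direction (15.2%, and 30.3% in either direction). The counts rested on single libraries: without GSK day 14 replicate 4, 1 mitochondrial and 0 nuclear members passed, and without GSK day 8 replicate 1 again 1 and 0.

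In the DMSO groups 0 mitochondrial and 0 nuclear members passed between day 14 and day 8, where 0.824% of all genes did, with 0 and 4 at an unadjusted p under 0.05 by limma (15.4% of all genes). All 13 mitochondrial members overlapped between these groups, and 3 nuclear members were higher and 2 lower without overlap, against 4.1% and 5.98% of all genes (10.1% in either direction). The mitochondrial median difference there was 0.01, and the mitochondrial minus nuclear difference moved by 0.01, against 1.01 in the GSK groups.

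The change over time in the GSK groups ran together with a fall of 4T1 epithelial markers. Of 12 kept epithelial markers, such as the keratins Krt8 and Krt18, 8 fell between day 8 and day 14 in the GSK groups. Their unlogged values summed to between 1308 and 1786 in GSK day 14 libraries, against 1944 to 4412 in GSK day 8 libraries, while the 16 macrophage markers summed to between 157107 and 195600 in GSK day 14 libraries, against 178374 to 232195 in GSK day 8 libraries. Because the epithelial sums did not overlap between these groups, a fit cannot tell day from epithelial markers here, and lost calls decide nothing. With the mean of the epithelial markers as a covariate, 0 mitochondrial and 0 nuclear members passed in this comparison. The difference was then 1.09 for mt-Nd6, 1.25 for mt-Nd2, 1.25 for mt-Cytb and 0.80 for mt-Co1, against 1.38, 1.02, 0.88 and 0.80 without the covariate, and 0.35 for Cox7b, against 1.42. In the DMSO groups 1 of the 12 epithelial markers fell over the same time, 11 differences were negative, and the sums were 1429 to 2175 in DMSO day 14 libraries, against 2447 to 3192 in DMSO day 8 libraries, where no mitochondrial member passed. In the day 14 comparison 0 of 12 epithelial markers passed, but 10 differences were negative and 2 positive, with a median of -0.28. Their sums overlapped (1308 to 1786 in GSK and 1429 to 2175 in DMSO libraries). With the same covariate 5 mitochondrial and 4 nuclear members passed there. Between GSK and DMSO on day 8, 11 of the 12 epithelial differences were positive, with a median of 0.41, and the sums overlapped. Krt14 alone passed, at 1.37 ± 0.25 (SE; adjusted p = 0.0361 by limma), where 0.0589% of all genes were higher. The part of these markers in the day 8 result was not tested. Endothelial markers summed to between 1224 and 1460 in GSK day 14 libraries, against 1704 to 3033 in GSK day 8 libraries, with 2 of 12 lower, and to between 1324 and 1870 in DMSO day 14 libraries, against 2334 to 2992 in DMSO day 8 libraries, with 0 of 12 lower and all 12 differences negative. The part of the endothelial markers in the result was not tested. Of the macrophage markers 4 of 16 rose and 3 fell on day 14 between GSK and DMSO (5.1% and 5.73% of all genes), among them Adgre1 (0.70) and Cd68 (1.04) higher and C1qa (-0.85) and Aif1 (-0.62) lower. Among kept markers of muscle, fat, red cells, fibroblasts, endothelium, neutrophils and lymphocytes, the antibody gene Igkc alone passed on day 14 (-0.57).

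Few genes that act on the chain from outside it passed on day 14. Of 25 kept genes for transcription, replication and RNA stability of mitochondrial DNA 0 passed (5.1% and 5.73% of all genes did, higher and lower). Their differences had a range of -0.51 to 0.62, with 18 positive. An unadjusted p under 0.05 by limma was reached by 7 of the 25, near the 27.3% of all genes. The 25 include Tfam, the packaging factor and transcription activator of mitochondrial DNA, at 4.67, 4.87, 5.01 and 5.45 in GSK day 14 libraries, against 4.71, 4.45, 4.77 and 4.73 in DMSO day 14 libraries (difference 0.34 ± 0.18, SE; adjusted p = 0.235). Polrmt, the mitochondrial RNA polymerase, differed by -0.07 ± 0.18 (SE). Lrpprc, which stabilises mitochondrial messengers, differed by -0.18 ± 0.21 (SE) on day 14, and rose between day 8 and day 14 in the GSK groups by 0.80 ± 0.23 (SE; adjusted p = 0.0457), the 1 gene of the 25 to pass there. Of 13 nuclear regulators 1 passed on day 14, Sirt1, a deacetylase, which fell by 0.68 ± 0.16 (SE; adjusted p = 0.0168). Of 42 further assembly factors of the complexes 1 passed, Bcs1l, which inserts the Rieske protein into complex III, and it fell by 0.52 ± 0.15 (SE; adjusted p = 0.0354). Of 25 citric acid cycle and pyruvate entry genes 0 passed, with 15 differences positive and a highest value of 0.79. Here too 7 of 25 reached an unadjusted p under 0.05 by limma, near the 27.3% of all genes.

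Base composition is given as a description. Mitochondrial members had a transcript GC content of 31.9% to 41.1%, below most nuclear members (39.5% to 60.4%). Nuclear members that rose on day 14 had a median GC content of 48.6%, those that fell 53.6%, and the rest 50.5%. Across genes, which are not independent replicates, the Spearman correlation of the day 14 difference with GC content was -0.20 over 11870 genes and -0.16 over the 86 nuclear members. Over the 86 it was 0.26 on day 8, -0.38 over time in the GSK groups, 0.04 over time in the DMSO groups and -0.50 for the difference between the day 14 and day 8 effects. Over the 11870 genes the values for the same comparisons, in this order, were 0.02, -0.22, -0.02 and -0.23. With each library's trend with GC content removed, 5 mitochondrial and 14 nuclear members passed on day 14. The nuclear-retained RNA Malat1 was 15.24, 15.33, 15.55 and 15.92 in GSK day 14 libraries, against 13.87, 14.84, 14.71 and 14.91 in DMSO day 14 libraries. It rose by 0.93 ± 0.28 (SE; adjusted p = 0.0422), and its part in the result was not tested. Malat1 is 1 of 2 that rose in a list of 6 nuclear-retained RNAs, of which 4 had negative differences, among them Neat1 (-0.32 ± 0.13, SE; adjusted p = 0.136).

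Promoters were read from RefSeq (GRCm38.p6) for 70 of the 86 nuclear members, as 250 bases before to 50 bases after each annotated start. A palindromic form of the site of NRF1, a known activator of respiratory genes, printed in capitals in the sequences below, was present in 7 of the 70 members and in 1.07% of 27025 genes. The ETS core CCGGAAG was in 17 of 70 members and 9.93% of genes on either strand, and AAGATGGCG, a form of the YY1 site, in 8 of 70 and 1.64%. The ETS and YY1 forms share the letters AAG and can overlap. The NRF1 form was found in 1 gene that rose, Atp5g2, and in 1 that fell, Ndufa11. Their 250 bases before the start are shown with the motif in capitals, because genes that moved in opposite directions held the same letters.
Atp5g2 promoter (chr15:102671048-102671297, minus strand): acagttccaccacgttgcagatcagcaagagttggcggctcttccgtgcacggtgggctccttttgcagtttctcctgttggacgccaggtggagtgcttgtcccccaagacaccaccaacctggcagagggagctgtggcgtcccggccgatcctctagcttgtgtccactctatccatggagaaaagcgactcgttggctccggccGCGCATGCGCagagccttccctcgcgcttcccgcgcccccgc
Ndufa11 promoter (chr17:56717512-56717761, plus strand): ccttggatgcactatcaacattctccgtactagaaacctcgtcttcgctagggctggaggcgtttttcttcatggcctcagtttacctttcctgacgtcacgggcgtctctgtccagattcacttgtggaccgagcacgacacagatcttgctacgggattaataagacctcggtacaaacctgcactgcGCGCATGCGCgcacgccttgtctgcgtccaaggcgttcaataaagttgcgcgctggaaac
The hexamer TATAAA was in 5 of 70 members, against 15.67% of genes. Of those 5, Atp5l, Ndufa3, Ndufb7 and Ndufs7 were among the 7 genes with a promoter that fell, and 0 of the 5 that rose held it. The motifs were chosen after values had been seen, and a match is a description of letters in this window.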

How the data were processed

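The deposited file is one table of log2 scale values per gene and library, normalised by the authors. RSEM 1.2.29, Bowtie2 and DESeq2 1.12.4 are listed in the submitters' processing notes beside the builds mm10 and GRCh38, and the step that gave the log2 values is not given in the sources used here. Of 24556 Ensembl IDs 24483 matched the GENCODE annotation of GRCm38. Genes at log2(10) or more in 3 or more of 14 libraries (11886) were fitted with limma 3.58.1 (R 4.3.3), with 4 group means, an intensity trend and Benjamini-Hochberg adjustment over all of them, threshold 0.05, two-sided. SE is limma's moderated standard error. The script was tested on simulated data. Members, gene lists and motifs were chosen with earlier results of these data known. Named were all 13 mitochondrial members, nuclear members past the threshold (up to 10 a direction), a set of catalytic and core subunits, and up to 4 genes past the threshold from other lists. Same-numbered libraries did not deviate together (correlations between -0.34 and 0.17), so the numbers were not used as pairs. Alternatives were other scalings, offsets, filters, covariates and each library left out. Depth is unknown, as no counts were used.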

Additional observations from a re-analysis of the deposited data

Results flagged for a closer look

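In 4 of 60 tests, each on a gene or score in a day 14 group of 4 libraries, a single library stood far from the other 3 by Dixon's criterion at 95%, where chance gives about 1 in 20. All 4 were DMSO day 14 libraries at the low end. mt-Co1 was 11.37 in replicate 2, against 12.14 to 12.29 in the others of the group. mt-Atp6 was 9.12 in the same replicate, against 10.66 to 10.80. Cox7c was 8.91 in replicate 1, against 9.97 to 10.19, and Ndufb7 was 9.83 in replicate 3, against 10.46 to 10.52.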

How the results depend on the processing

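The direction of the mitochondrial minus nuclear difference on day 14 and over time in the GSK groups was the same under all scalings, offsets, filters and left-out libraries tried. Counts of members past the threshold were less stable, and those of mitochondrial members include mt-Nd4l where it passed. The share of all genes that passed under each of these settings is not given here. On day 14 mitochondrial members numbered 5, and 3 with the ribosomal RNA gene split as a term or within the libraries with AY036118 higher, with 3 to 7 over libraries left out. Nuclear members on day 14 numbered 15, and 5 with no filter on low values, 3 with the split as a term, 4 with the epithelial covariate and 8 under 10% of shared words, with 1 to 23 over libraries left out (5, 6 and 1 without GSK day 14 replicates 1, 2 and 4, 6, 3 and 7 without DMSO day 14 replicates 1, 2 and 4, and 23 without GSK day 8 replicate 1). Over time in the GSK groups mitochondrial members numbered 5, and 1 with no filter, 2 with the split, 0 with the epithelial covariate and 3 with the GC trend removed, with 1 to 6 over libraries left out (2, 1 and 1 without GSK day 14 replicates 1, 3 and 4, and 1, 1 and 3 without GSK day 8 replicates 1, 2 and 3). Nuclear members there numbered 8, and 0 with no filter, 14 when no other group entered the fit, 3 with the split, 0 with the epithelial covariate, 2 within the libraries with AY036118 higher and 4 under 10% of shared words, with 0 to 15 over libraries left out (2, 3, 4 and 0 without GSK day 14 replicates 1 to 4, 15 without DMSO day 14 replicate 1, and 0, 1 and 13 without GSK day 8 replicates 1 to 3). On day 8 leaving out a library gave 0 to 1 nuclear members (1 without GSK day 8 replicate 1), and for the difference between days 0 to 1 mitochondrial members (1 without GSK day 14 replicate 1). The replicate numbers do not pair the libraries. With a replicate block the day 14 counts were 5 mitochondrial and 13 nuclear members, and the GSK time counts 1 and 1. In single genes the day 14 difference of mt-Co2 was 0.69 with nuclear copies summed in, and that of mt-Nd3 was -0.15 within the libraries with AY036118 higher. Cox7b, mt-Co1, mt-Nd6 and mt-Cytb passed on day 14 under all 14 settings and all 14 left-out libraries, and Ndufb7 under 5 and 5 of them. Copies summed in, GC trend removal, the libraries with AY036118 higher and the members under 20% of shared words were chosen after seeing the data. The cause of these shifts was not tested. With 3 or 4 libraries a group, no counts and an unstated transformation, differences of low genes such as mt-Nd4l and mt-Nd3 are the least certain.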
